A study of Mus musculus with 4 samples.

Results

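DC 2 is a cluster of dendritic cells among the CD45+ cells of mouse melanomas, for which a mixture of conventional and plasmacytoid dendritic cells had been proposed. Its members are the cells that carry this name in the deposited cell table, 104 of 4108 cells. Control tumors gave 95 of them (28, 23, 22, 12 and 10 cells in control tumors 1 to 5) and tumors treated with glucocorticoid (GC) gave 9 (1, 3, 3, 0 and 2 cells in GC tumors 1 to 5). The markers that go with the name are Xcr1, Clec9a, Flt3 and Siglech. UMIs of Xcr1, Clec9a and Siglech were found in a minority of the cells, so the cells are called the DC 2 cluster throughout.

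Dendritic cells take up antigen, load it onto MHC molecules and prime T cells. Conventional type 1 cells (cDC1) depend on Irf8 and Batf3, carry the chemokine receptor Xcr1 and the dead-cell receptor Clec9a, and are known for cross-presenting tumor antigen to CD8 T cells. Conventional type 2 cells (cDC2) carry Sirpa, Cd209a and the lectins Clec10a and Mgl2 and mainly prime CD4 T cells. Plasmacytoid cells (pDC) depend on Tcf4, carry Siglech and are known for type I interferon secretion, while mature dendritic cells of any origin switch on Ccr7, Fscn1 and Ccl22 and migrate to lymph nodes.

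All tumors grew from the 20967 melanoma cell line, which was derived from a C57BL/6 mouse of genotype Nras+LSL-G12D;Tyr::CreERT2+/o, so the oncogene was switched on in melanocytes. They were implanted intradermally in wild type C57BL/6 mice, and the immune system of the host was intact. GC tumors were treated topically with clobetasol propionate, a potent GC, and control tumors with cetraben, an emollient cream, 5 mice each. The methods name the GC preparation an ointment, so the vehicle differed together with the drug and these cannot be told apart. The length of treatment and the age of the mice are not stated in the sample labels. Each tumor was marked with its own hashtag antibody, live CD45+ cells were sorted, and the tumors of a group were pooled into 1 channel of a droplet device, for which 17100 control and 3500 GC cells were loaded. Treatment and channel are therefore the same split and cannot be told apart. The tumor is the replicate here, with numbers that only name it, and all tumors come from 1 cell line.

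The channels gave 3803 control and 305 GC cells. Control DC 2 cells held a median of 15930 transcript molecules (unique molecular identifiers, UMIs; range 2915 to 25652) and GC DC 2 cells a median of 22078 (3437 to 27800), 1534616 and 177254 UMIs in all. The compared clusters, DC 1 (97 control and 10 GC cells) and Monocytes 1 (311 and 18), had control medians of 15827 and 12410 UMIs. Levels are given as UMIs per 10000 UMIs of a cell, averaged over the cells of a tumor, so that a GC value rests on 1 to 3 cells per tumor. No barcode was shared between the channels. Intervals and limits below cover counting error only.

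In most DC 2 cells, no UMI of these conventional type 1 or plasmacytoid markers was found. A droplet samples part of a cell's RNA, so a cell with 0 UMIs of a gene can still express it, and these counts do not show that the cells lack the genes. Of the 104 cells, 73 (70.2%, exact 95% interval 60.4 to 78.8) had 0 UMIs of Xcr1, Clec9a and Siglech, 23 (22.1%, 14.6 to 31.3) had Xcr1 or Clec9a but no Siglech, 2 had Siglech alone and 6 had markers of both kinds. Of the 23 cells, 8 rested on 1 UMI. With at least 2 UMIs required of a marker, the counts became 82, 15, 3 and 4. In control tumors, Siglech was found in 7 of 95 cells, Xcr1 in 5 and Clec9a in 28 (29.5%).

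The same markers were found in a smaller share of cells in clusters CD8 1 and DC 1. CD8 1 are T cells, which should lack them, whereas DC 1 are dendritic cells, which need not. Among the 517 control cells of cluster CD8 1, T cells with a median of 6342 UMIs, Clec9a was found in 0.387%, Xcr1 in 0.774% and Siglech in 0 cells, where the count allows up to 0.580%. In DC 1, at nearly the same depth as DC 2, Clec9a was found in 9.28% of control cells, Xcr1 in 2.06% and Siglech in 0 of 97 cells, which allows up to 3.09%. The Xcr1 difference between DC 2 (5 of 95 cells) and DC 1 rests on few cells. Flt3, the growth factor receptor that dendritic cells share, was found in 72.6% of control DC 2 cells, 95.9% of DC 1, 4.82% of Monocytes 1 and 0.967% of CD8 1 cells.

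By tumor, Siglech averaged 0.0183, 3.53, 3.32, 0.0711 and 0 UMIs per 10000 in control tumors 1 to 5. Xcr1 averaged 0, 0.359, 0.161, 0.370 and 0, and Clec9a 1.02, 0.696, 0.677, 0.480 and 0.389. Clec9a was thus present in all 5 control tumors, whereas the level of Siglech lay almost wholly in control tumors 2 and 3.

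The uneven Siglech level came from 5 cells. These held 31, 32, 36, 51 and 77 Siglech UMIs, against at most 4 in any other DC 2 cell and at most 2 in any other control cell. Of the 5 cells, 3 were from control tumor 2 and 2 from control tumor 3. They were grouped after the values were seen, with a limit of 10 UMIs, so what follows describes 5 cells and has no test. Of 19 pDC markers, 17 were higher in these cells than in the remaining control cells, pooled, or 16 of 18 without Siglech, which chose the cells. Of all 13394 genes found in control DC 2 cells, 37.7% were higher. Tcf4, the transcription factor that pDC depend on, held 66 to 148 UMIs in each of them, the homing receptor Ccr9 held 10 to 47, and Cox6a2 3 to 7. Pooled, Tcf4 reached 84.5 UMIs per 10000 against 5.59 in the remaining cells, Ccr9 23.1 against 0.0363, Runx2 23.0 against 2.09, and the B-lineage adaptor Blnk 15.0 against 0.225. High Tcf4 was not confined to the 5 cells. Among the remaining cells, 1 of control tumor 1 held 99 Tcf4 UMIs (of 17805 in all). Another of that tumor held 56 (of 6571), and both had 0 Siglech UMIs. Atp1b1 and Cox6a2 were found in all 5 cells and in none of the 86 remaining control cells outside both marker-high groups. The summed level of the pDC list without Siglech was 139 to 245 UMIs per 10000 in the 5 cells, above the highest of those 86 cells (103).

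Pooled, the Siglech-high cells were low in genes that the rest of the cluster shared. The MHC class II gene H2-Ab1 stood at 4.90 UMIs per 10000 against 56.9 in the remaining cells. It was uneven among the 5, with 0, 0, 2 and 3 UMIs in 4 of them and 30 in a cell of control tumor 3, and the MHC class II list summed to 3.25 to 74.8 UMIs per 10000 per cell. Pooled levels were lower for the costimulatory gene Cd86 (0.420 against 29.5) and the cytokine gene Il1b (0.420 against 45.8). Il1r2, the decoy receptor for interleukin 1, stood at 0.140 against 38.5. Clec9a was found in all 5 at 1 to 3 UMIs, while Xcr1 was at 0. Their UMI totals (11587 to 19420) lay within the range of the cluster. Of the B cell markers, Ighm was the only one of note in them, with 49 UMIs in the 5 cells, and the summed B cell list reached 0.863 to 10.9 UMIs per 10000.

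Xcr1 likewise came from few cells. It held 5, 5, 11 and 14 UMIs in 4 control cells and 6 in 1 cell of GC tumor 5, against at most 1 UMI in any other DC 2 cell. The 4 control cells (2 from control tumor 2, 1 each from tumors 3 and 4) held 4 to 16 Clec9a UMIs and no Siglech. All 16 cDC1 markers were higher in them than in the remaining control cells, pooled, among them Xcr1, which chose the cells. Of all 13394 genes, 34.3% were higher. Without Xcr1, the list summed to 124 to 148 UMIs per 10000 per cell, above the highest of the 86 cells (78.5). Irf8 stood at 20.3 UMIs per 10000 against 1.81, the BEACH-domain protein gene Wdfy4, needed for cross-presentation, at 27.99 against 3.28, Naaa at 24.2 against 2.09, and the adhesion gene Cadm1 at 7.34 against 0.00727. Unlike the Siglech-high cells, they kept MHC class II (H2-Ab1 61.6 UMIs per 10000), but Cd86 (3.10) and Il1r2 (2.75) were low and Cd209a was at 0. The limit of 5 UMIs was chosen after the values were seen. Their UMI totals were 14094, 23021, 24769 and 25304, so 3 of the 4 lay near the top of the range of the cluster.

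The Xcr1-high GC cell differed from these. It held 6 Xcr1 and 4 Siglech UMIs, no Clec9a and no Cadm1, 30 Naaa UMIs, and 15 UMIs of the proliferation gene Mki67, in 26051 UMIs.

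**Figure D1:**
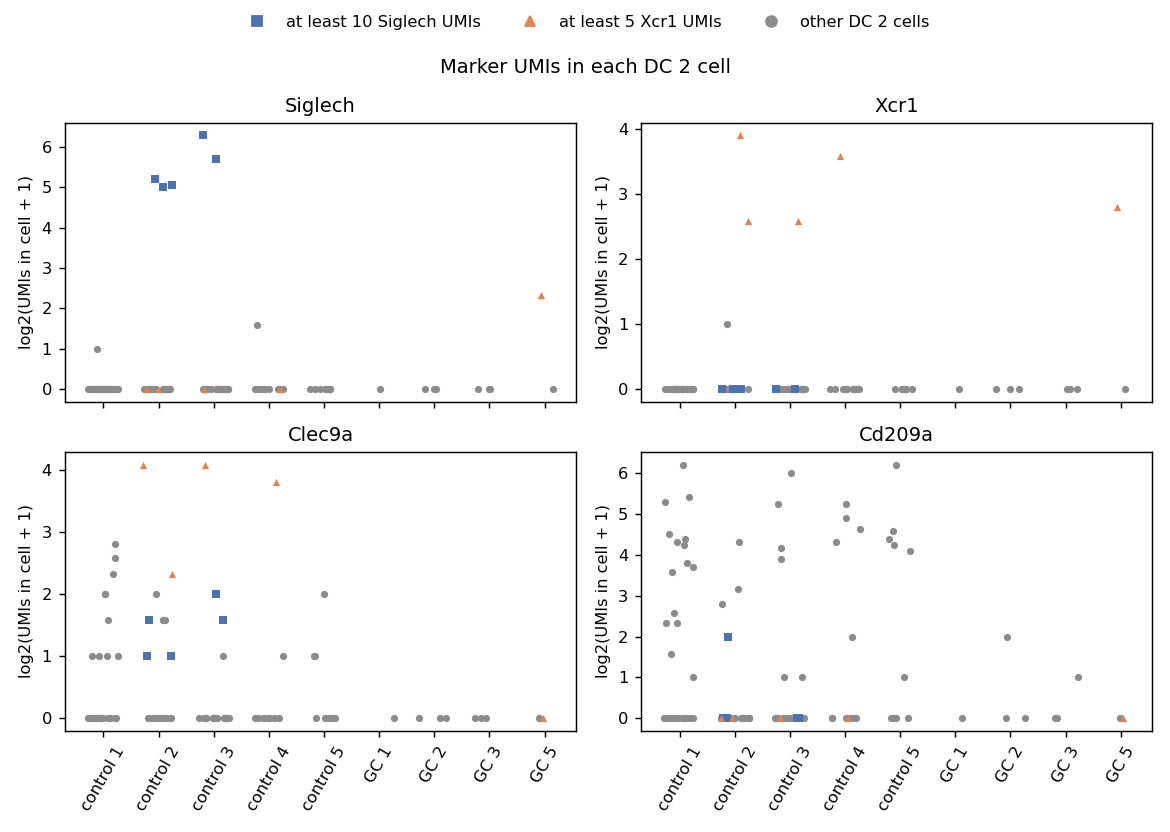
UMIs of 4 marker genes in each DC 2 cell, as log2(UMIs + 1) on the vertical axis, with cells grouped by tumor along the horizontal axis (GC tumor 4 had none). Squares are the 5 cells with at least 10 Siglech UMIs, triangles the 5 with at least 5 Xcr1 UMIs, circles all others, and points are shifted sideways for display. Siglech and Xcr1 sit at 0 in nearly all cells, while Cd209a is found in 36 of 95 cells in control and in 2 of 9 with GC.

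The remaining 86 control cells shared antigen presentation and inflammatory genes. H2-Ab1 and Cd86 were each found in 84 of them, Il1b in 84, Il1r2 in 76 and Flt3 in 60, with per-cell medians of 92, 31, 60.5, 34 and 2 UMIs. Cd209a was found in 35, Clec10a in 31, Ccr2 in 57 and Ccr7 in 16. Clec9a was present in 19 of the 86, at most at 6 UMIs. The cDC1 list summed to a median of 9.55 UMIs per 10000 per cell, the pDC list to 9.50 and the cDC2 list to 16.3.

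Cd209a encodes a C-type lectin of the DC-SIGN family (GRCm38 chromosome 8, bases 3743397 to 3748984, minus strand), and lies among close relatives with which reads can be shared. Xcr1 lies on chromosome 9 (bases 123852315 to 123862029, minus strand), Clec9a on chromosome 6 (129408862 to 129424763, plus strand) and Siglech on chromosome 7 (55768178 to 55778925, plus strand), as the GENCODE annotation of that build gives them. Reads in introns were counted together with those in exons, so a UMI marks the gene and not a part of it.

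To place the cluster, its levels were set against those of DC 1 within each control tumor. The clusters were built from these genes, so this is a description with no test. A gene was counted as higher or lower where the difference was at least 1 on the log2 scale (after adding 0.1 UMIs per 10000) in every tumor used. Against DC 1, in 5 tumors and 5881 genes, 445 genes were higher (7.57% of all) and 272 lower (4.63%). Members of the MHC class II list and of the monocyte list were higher in DC 2, and mature dendritic cell genes lower.

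Of 10 MHC class II genes, 9 were higher than in DC 1. H2-Ab1, a chain of the class II molecule, stood at 46.5, 59.99, 41.9, 54.2 and 64.4 UMIs per 10000 in control tumors 1 to 5 against 4.23 to 18.2 in DC 1. Ciita, the transactivator of these genes, stood at 2.18 to 3.59 against 0.0400 to 0.606. The DC 2 values lay above all DC 1 values in both cases. The exception was H2-Eb1, with 36.1 ± 4.1 (SD, n = 5) against 12.1 and a median log2 difference of 1.65. Of 12 class I and cross-presentation genes, 1 was higher, Wdfy4 (median log2 difference 5.12).

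Mature dendritic cell genes marked the other cluster. Of 17 of them, 10 were lower in DC 2 and 0 higher. Fscn1, which bundles actin in dendrites, stood at 0 to 0.0625 UMIs per 10000 in DC 2 and at 16.3 to 21.9 in DC 1 (median log2 difference -7.14). Ccr7, the receptor that guides cells to lymph nodes, stood at 0.562, 2.89, 1.45, 1.06 and 3.70 against 20.02 to 29.4, and Il12b, a subunit of interleukin 12, at 0 to 0.0739 against 2.66 to 10.6. Cd86 (26.9 ± 7.19 against 14.2 ± 2.79) and Cd83 (14.04 ± 4.35 against 22.1 ± 8.89, SD, n = 5 each) did not pass the rule in either direction.

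The type 2 markers Cd209a and Clec10a were higher in DC 2 than in DC 1, where Clec10a was found in 3.09% of control cells. Cd209a stood at 7.68, 0.904, 4.76, 5.06 and 9.56 UMIs per 10000 in the control tumors, lowest in control tumor 2, and 0 UMIs were found in DC 1, so that the pooled level was at least 237-fold higher. Clec10a stood at 0.685 to 2.61 against 0 to 0.0450. Itgam, an integrin, was also higher (log2 difference 2.94). Sirpa (3.02 ± 0.354 against 1.40 ± 1.08) and the transcription factor Irf4 (0.485 against 0.472) were among the 5 tested members that were not, and 3 of 8 were higher in all.

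The cDC1 list split between the clusters. Of 10 tested members, 5 were higher in DC 2, namely Clec9a, Wdfy4, Naaa, Ppt1 and Ifi205, and 1 was lower, Batf3. By the same rule, Naaa, Ppt1 and Ifi205 were not higher in DC 2 than in Monocytes 1 (values below). Wdfy4 stood at 3.17 to 5.30 UMIs per 10000 against 0 to 0.0868, and Naaa at 1.82 to 3.81 against 0 to 0.194. Batf3 stood at 0.239 to 0.456 against 1.69 to 2.91. Flt3 was also lower than in DC 1, with 1.96 to 2.60 against 4.37 to 11.7. Without the marker-high cells, the Clec9a difference fell from a median of 2.07 to 0.99 on the log2 scale.

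No pDC marker passed the rule, 0 of 10 tested, in either direction, although Siglech was at 0 in DC 1 (pooled level at least 76.3-fold higher in DC 2). Irf8, shared by cDC1 and pDC, stood at 1.16, 8.61, 6.00, 2.18 and 1.19 UMIs per 10000 against 10.3 to 17.2 in DC 1, and was highest in control tumors 2 and 3. Tcf4 stood at 10.4, 17.1, 10.1, 3.45 and 2.70 against 2.17 to 9.45, so these ranges overlapped.

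Of 10 monocyte genes, 8 were higher than in DC 1. Ccr2, the receptor that draws monocytes to tissue, stood at 2.29 to 7.72 UMIs per 10000 against 0.0349 to 0.185, and Lyz2, which encodes lysozyme, at 0.716 to 3.94 against 0.0242 to 0.288. Among cytokine and chemokine genes 5 of 13 were higher (Cxcl9, Ccl3, Ccl4, Tgfb1 and Il1b) and 4 lower (Il12b, Il15, Ccl5 and Ccl22). Il1r2 stood at 22.3, 37.1, 35.8, 35.1 and 26.2 against 0.566 to 7.33. By median difference, the genes highest over DC 1 were Cd209a, Iqgap2, Arhgap15, Wdfy4, Maml3, Gpr141, Rasgef1b, Ccl4, Ccr2, Pid1, Arhgap24 and Mmp12 (log2 differences 4.70 to 5.69). The lowest were Fscn1, Cd200, Cacnb3, Serpinb6b, Ly75, Glis3, Il12b, Tmem150c, Slc22a23, Mreg, Strip2 and Syn3 (-7.14 to -4.75).

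Against Monocytes 1, the differences ran the other way for monocyte genes. In the 4 control tumors with at least 5 cells of both clusters and 5676 genes, 163 genes were higher in DC 2 (2.87% of all) and 243 lower (4.28%). Of 12 monocyte genes, 10 were lower. Ly6c2 stood at 0.564 to 1.64 UMIs per 10000 in DC 2 and 8.31 to 12.5 in Monocytes 1, the coagulation factor gene F13a1 at 0.0817 to 0.586 against 8.67 to 13.7, and Fn1, which encodes fibronectin, at 0.490 to 4.19 against 13.4 to 17.6. In control tumor 5, outside these 4, Fn1 stood at 8.59 in DC 2. For Fn1, DC 2 thus lay between Monocytes 1 and DC 1 (0 to 0.160). For Ly6c2, DC 1 (0 to 0.586) overlapped with DC 2. Ccr2 in DC 2 was also between the other clusters, at 10.7 ± 1.48 in Monocytes 1 (SD, n = 4 tumors), 4.76 ± 1.94 in DC 2 and 0.0898 ± 0.0722 in DC 1 (SD, n = 5 each). Means in the next paragraph likewise rest on 4 control tumors for Monocytes 1 and on 5 for DC 2 and DC 1. Of 7 macrophage genes, 4 were lower than in Monocytes 1, the 3 chains of C1q and Apoe, and of 15 interferon-stimulated genes 5 were lower.

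Some dendritic genes were higher than in Monocytes 1. Flt3 stood at 0.0174 to 0.0734 UMIs per 10000 in Monocytes 1 (median log2 difference 4.28), and the dendritic transcription factor Zbtb46 at 0.803 ± 0.345 in DC 2 against 0.0208 ± 0.0148. Of 9 MHC class II genes, 8 were higher, the exception being H2-DMb1 (log2 difference 1.31). Of 7 cDC2 genes, 3 were higher, namely Cd209a, Clec10a and Mgl2, and Itgam was lower. Ccr7, Cd83 and Pdcd1lg2 were higher among 11 mature dendritic cell genes. Bcl11a, a transcription factor with a role in pDC, was higher against both clusters (1.85 ± 0.838 against 0.127 in DC 1 and 0.178 in Monocytes 1). Il1b passed the rule in neither direction, with 42.4 ± 10.8 in DC 2 and 40.1 ± 8.80 in Monocytes 1.

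The genes highest over Monocytes 1 by median difference were Tbc1d4, Cyp7b1, Ctnnd2, Plet1, Cd209a, Flt3, Dcstamp, Zfp366, Klrd1, Kit, P2ry10 and Aff3 (log2 differences 3.74 to 4.72). Flt3, Zfp366, which encodes the dendritic repressor DC-SCRIPT, and Kit, the stem cell factor receptor, were among them. Among the lowest were Thbs1, Slpi, F13a1, Plcb1, Spp1, Chil3, Arg1, Nos2, Cacna1d, Vcan and Apoe (-6.36 to -4.36). They include Arg1 and Nos2, whose enzymes consume arginine.

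**Figure D2:**
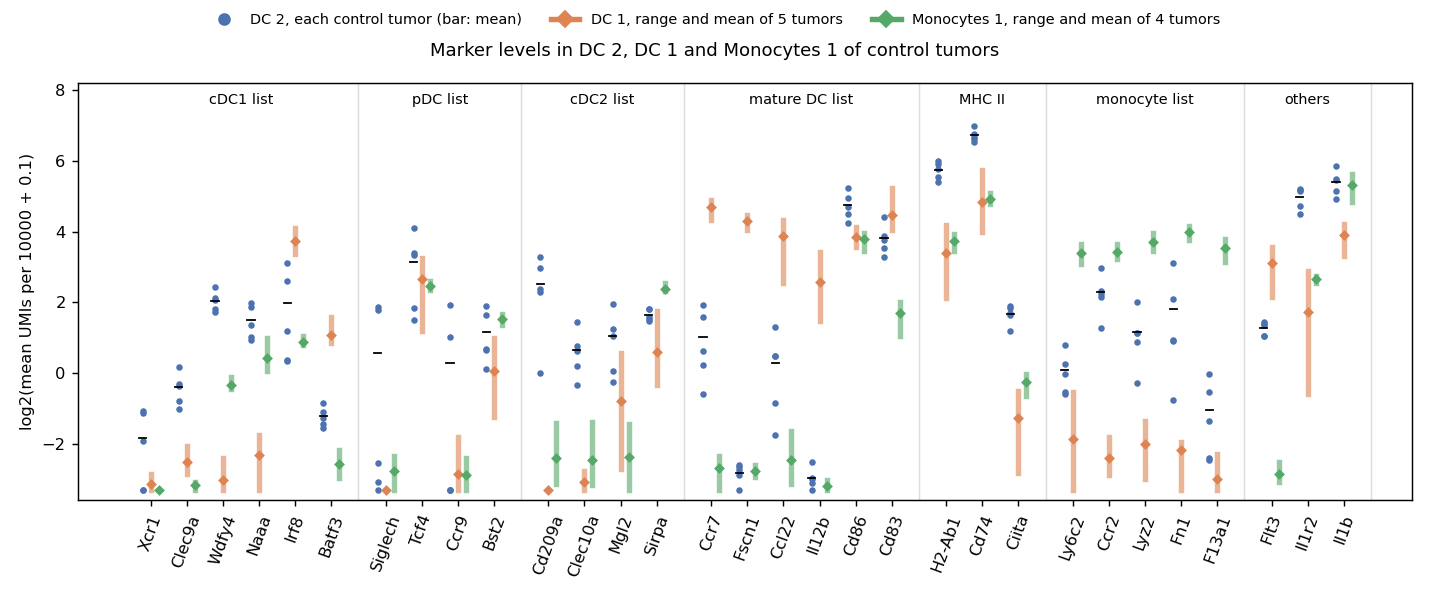
Levels of marker genes, grouped by list, in DC 2 of each of the 5 control tumors (points, with a bar at their mean), and the range and mean of DC 1 (5 tumors) and Monocytes 1 (4 tumors), as log2(mean UMIs per 10000 + 0.1). DC 2 stands below DC 1 in Fscn1, Ccr7 and Il12b, below Monocytes 1 in Ly6c2, Fn1 and F13a1, and above both in Cd209a, Clec10a, H2-Ab1 and Il1r2.

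Markers of other lineages were at or near 0. The 8 T cell genes summed to 0.0934 to 0.500 UMIs per 10000 in the control tumors, the 5 NK cell genes to 0.0209 to 0.0850, the 5 neutrophil genes to 0.0579 to 0.409 and the 5 eosinophil genes to 0 to 0.180. The 8 B cell genes summed to 0.316 to 1.11, of which Ighm was nearly all, and Ms4a1, Pax5 and Ebf1 were at 0. Of 7 melanoma genes, 6 were at 0 and Mitf, which myeloid cells also use, stood at 1.37 ± 0.25. The 10 proliferation genes summed to 0.407 to 1.44.

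Among the 86 control cells outside the marker-high groups, cells with and without Cd209a differed in other genes. The split was made after Cd209a was seen to vary between cells, and it compares cells of the same cluster and tumor, so it is described by the number of tumors and without a test. A cell without a Cd209a UMI can still express it. Only chosen genes were compared, and the share of all genes that go 1 way in all 5 tumors was not counted. The numbers of tumors below therefore have no background to be read against. Median depths were 14546 UMIs in the 35 cells with Cd209a and 17282 in the 51 without. Clec10a was higher with Cd209a in all 5 tumors (1.65 to 4.77 against 0 to 0.769 UMIs per 10000), as was Cd83 (11.7 to 31.6 against 5.22 to 13.7). Ccr2, Lyz2, Wdfy4, Klf4 and Tnip3 were higher in 4 of 5.

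Il1r2 was lower with Cd209a in all 5 tumors, at 5.36 to 13.03 UMIs per 10000 against 41.5 to 63.2 without it. These ranges did not overlap. Il1b (14.7 to 45.6 against 45.6 to 88.7), the PD-L1 gene Cd274, the chemokine gene Cxcl16 and the Fc receptor gene Fcgr1 were also lower in all 5 tumors, and Ccr7 was at 0 in every cell with Cd209a against 1.21 to 9.26 without. H2-Ab1, Cd86, Cd80 and Sirpa were lower in 4 of 5 tumors. In control tumor 2, which had 3 cells with Cd209a, H2-Ab1 (69.9 against 68.7), Cd86 (30.6 against 27.9), Ccr2, Lyz2 and Tnip3 went the other way. Mgl2 was higher in 3 tumors and lower in 2.

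**Figure D3:**
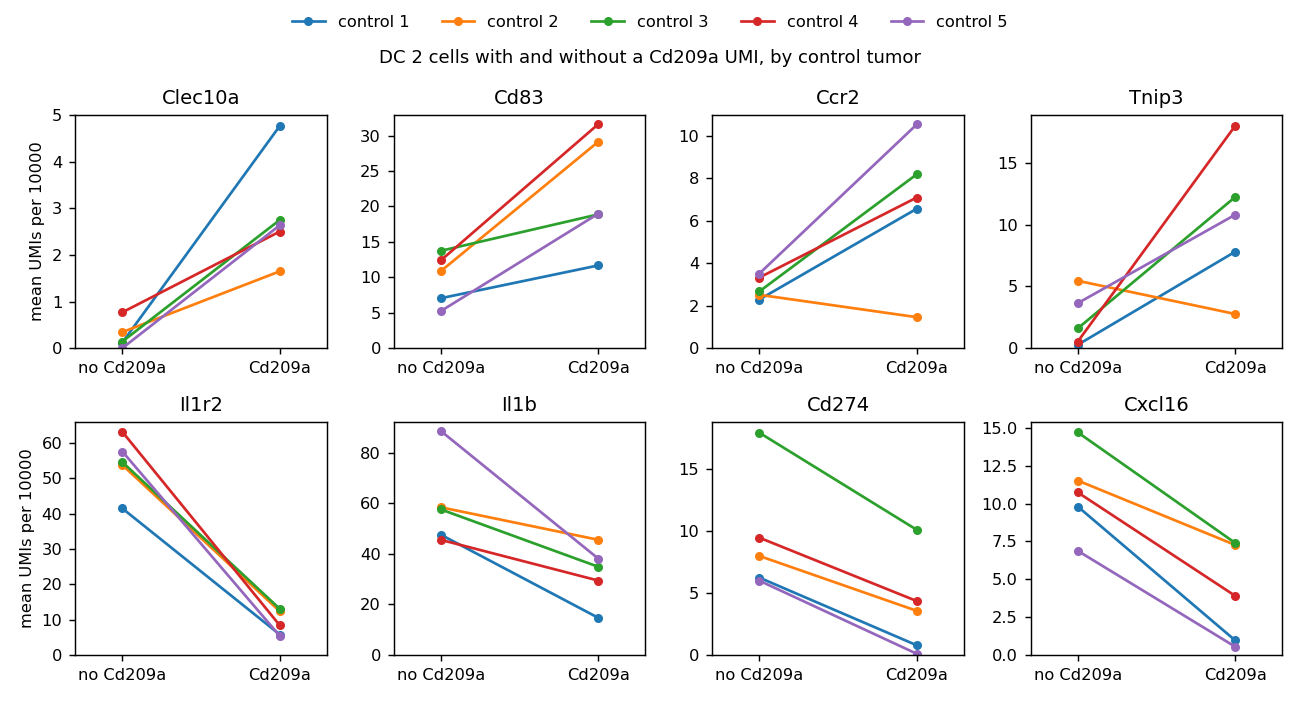
Mean UMIs per 10000 of 8 genes in DC 2 cells with and without a Cd209a UMI, 1 line per control tumor (marker-high cells left out). Clec10a and Cd83 are higher with Cd209a in all 5 tumors, Ccr2 and Tnip3 in 4, and Il1r2, Il1b, Cd274 and Cxcl16 are lower in all 5.

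DC 2 made up 3.52, 2.74, 1.76, 2.10 and 2.88% of the CD45+ cells in control tumors 1 to 5 and 5.56, 4, 2.70, 0 and 2.53% in the GC tumors. The means were 2.60 ± 0.688% and 2.96 ± 2.05% (SD, n = 5 each), a difference of 0.358 percentage points within the spread of the tumors (exact two-sided permutation test, p = 0.738, where the smallest p is 0.00794). For the 0 of 22 cells in GC tumor 4, a share as high as 13.6% is possible. A share of sorted cells does not tell a gain of DC 2 from a loss of other cells.

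Among the dendritic cells alone, DC 1 plus DC 2, the DC 2 share was 60.9, 44.2, 41.5, 52.2 and 55.6% in the control tumors. It was 33.3, 75, 60, 0 and 40% in the GC tumors, which held 3, 4, 5, 2 and 5 dendritic cells. The means, 50.9 ± 7.99% and 41.7 ± 28.5% (SD, n = 5 each), differed by -9.20 percentage points, again within the spread (exact two-sided permutation test, p = 0.540). Adjusted over these 2 comparisons, p was 0.738 for both (exact permutation tests with Benjamini-Hochberg adjustment). Pooled, DC 2 was 49.5% of 192 control and 47.4% of 19 GC dendritic cells.

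**Figure D4:**
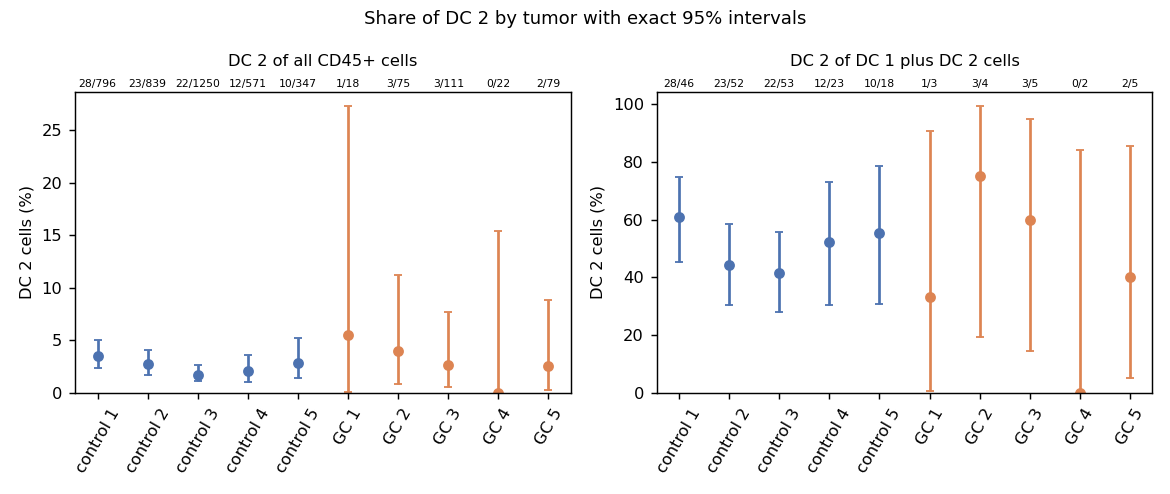
DC 2 as a percent of all CD45+ cells (left) and of the cells of DC 1 and DC 2 (right) in each tumor, with exact 95% binomial intervals and the cell counts above. The GC intervals are wide, and the highest and the lowest share of each panel are both in GC tumors.

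GC and control were then compared gene by gene over tumors. The 9 GC cells come from 4 tumors and include 1 tumor with 1 cell, so limma weighted each tumor by its cells and compared log2(mean UMIs per 10000 + 0.1) across 5919 genes. In a mean over so few cells, less RNA of a gene per cell and fewer cells of a type cannot be told apart. In control, 5 of 95 cells were Siglech-high and 4 Xcr1-high, and in GC 0 and 1 of 9. The median difference over all genes was -0.50 (log2), and differences of single genes are given both as fitted and after taking that shift away. The p-values belong to the fitted differences, and the relative differences were not tested.

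Of the 5919 genes, 31 were lower with GC (0.524%) and 1 higher (0.0169%) at an adjusted p under 0.05 (limma with Benjamini-Hochberg adjustment). The split of the calls by direction differed between tools, which differ in more than 1 step. On UMI sums, edgeR called 49 lower (0.828%) and 9 higher (0.152%) with a median shift of -0.25, and DESeq2 38 lower (0.642%) and 29 higher (0.49%) with a shift of -0.08. All 3 tools called 21 of the 32 genes. Leaving out 1 tumor moved the limma count between 12 and 75. The count was 13 without GC tumor 1, 12 without GC tumor 3, 18 without GC tumor 2 or 5, and 75, 64 and 74 without control tumors 1, 2 and 3.

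Nrg1 and Tnip3 were lower under all 17 alternative settings. Nrg1, which encodes the growth factor neuregulin 1, stood at 8.59, 6.05, 7.16, 6.43 and 9.48 UMIs per 10000 in control tumors 1 to 5 and at 0, 0.742, 0.120 and 0 in GC tumors 1, 2, 3 and 5. Its log2 difference was -4.82 ± 0.662 (SE), or -4.31 relative to all genes, with an adjusted p of 4.59e-06 by limma, and 6 UMIs were counted in the GC cells against 861. Tnip3, an inhibitor of NF-kappaB signaling, stood at 4.31, 3.91, 4.28, 7.76 and 7.93 against 0, 0.151, 0.234 and 0 (log2 difference -4.60 ± 0.672, relative -4.10, limma adjusted p 1.31e-05). For both genes, the groups did not overlap. Even in control, Nrg1 was found in 40 of 95 cells and Tnip3 in 46, and 1 cell alone held 137 Nrg1 UMIs.

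The other 2 clusters gave these values for the same genes, and the difference between clusters was not tested. Nrg1 pooled over GC cells stood at 0.269 UMIs per 10000 in DC 1 (control tumors 1.70 to 7.51) and at 14.6 in Monocytes 1 (9.94 to 13.2). Tnip3 stood at 1.17 in DC 1 (2.54 to 6.96) and 0.298 in Monocytes 1 (0.845 to 2.59). The low Nrg1 level of the GC cells was thus seen in both dendritic clusters but not in Monocytes 1.

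Further genes were lower in the GC cells with less support. Tmtc2 stood at 0.686 to 3.11 UMIs per 10000 in the control tumors and at 0 in all GC cells, a pooled level at least 13.1-fold lower (limma adjusted p = 5.41e-05, past the threshold in 16 of 17 alternatives). The chemokine gene Ccl3 stood at 0.671 to 2.01 against 0 (at least 5.93-fold lower, limma adjusted p = 0.00648). Its neighbor Ccl4 stood at 6.18 to 10.0 against 0, 0.139, 5.86 and 0.192, so GC tumor 3 came close to the controls, and edgeR did not call it (adjusted p = 0.0582). Hdac9, Lemd3, Apba1 and the costimulatory receptor gene Tnfrsf9 were also among the 10 lowest, with log2 differences of -3.71 to -3.41 (relative -3.21 to -2.90) and limma adjusted p of 0.00476 to 0.00770. Without the marker-high cells, limma called 13 genes. Ccl3 (log2 difference -3.08, limma adjusted p = 0.262), Ccl4 (-3.44, 0.144), Apba1 (-2.94, 0.0691) and Hdac9 (-2.65, 0.644) were not among them, although the differences of Ccl3, Ccl4 and Apba1 were nearly as large as with those cells (-3.39, -3.68 and -3.41). Leaving out a GC tumor also ended calls by limma, for Ccl3 without GC tumor 1, 2 or 3 (adjusted p = 0.0920, 0.0580 and 0.0605), for Ccl4 and Hdac9 without GC tumor 1 (0.205 and 0.0920) or 2 (0.0909 and 0.0692), and for Lemd3 without GC tumor 3 (0.0605). Tnfrsf9 was lost without GC tumor 1, 3 or 5 (0.170, 0.127 and 0.0574) and Apba1 without GC tumor 2, 3 or 5 (0.144, 0.0605 and 0.084).

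Ap1s2, which encodes an adaptor subunit for clathrin-coated vesicles, was the only gene that limma called higher. It stood at 1.07, 1.03, 1.15, 1.02 and 1.90 UMIs per 10000 in the control tumors and at 8.73, 5.09, 7.28 and 15.8 in GC tumors 1, 2, 3 and 5, so every GC tumor lay above every control tumor. The log2 difference was 2.68 ± 0.590 (relative 3.18), with an adjusted p of 0.00881 by limma and 5.35e-04 by edgeR. Without GC tumor 3 the log2 difference was 2.73 (limma adjusted p = 0.103), without GC tumor 5 it was 2.39 (0.134), and without the marker-high cells it was 2.44 (0.0664). In GC cells of the other clusters, Ap1s2 pooled to 3.50 in DC 1 (control tumors 0.250 to 2.31) and 6.86 in Monocytes 1 (0.324 to 0.632), above the control tumors in both.

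Subset markers did not move together in the 9 GC cells. Clec9a was found in 0 of 9, so that up to 33.3% is possible, and its pooled level was at least 3.89-fold lower than in control (limma adjusted p = 0.0238, but 0.567 without the marker-high cells). Leaving out any 1 of the 4 GC tumors also ended that call (limma adjusted p 0.083 to 0.143). Cd209a stood at 0, 0.453, 0.234 and 0 UMIs per 10000 in the GC tumors against 0.904 to 9.56, found in 2 of 9 cells. Every GC tumor was below every control tumor. The call depended on the tool, since the limma adjusted p was 0.368 and that of edgeR 0.00250 (log2 difference -4.56). Without control tumor 2, where Cd209a was lowest, the limma adjusted p was 6.18e-07, and without control tumor 1 it was 0.000685. Only these 2 of the 9 fits with 1 tumor left out passed, and the highest limma adjusted p among the 9 was 0.661. Without the marker-high cells, the adjusted p was 0.213 by limma and 0.000672 by edgeR. Clec10a, by contrast, stood at 5.82, 0, 4.66 and 0.470 against 0.685 to 2.61, and Mgl2 at 0 to 3.33 against 0.729 to 3.796, so these ranges overlapped. The pooled levels of Xcr1 (0.338 in GC against 0.235), Clec10a (1.35 against 1.25) and Mgl2 (2.03 against 1.99) were close to those of control or above.

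By list, and with 0.524% of all genes called lower, limma called 1 of 12 cDC1 genes lower (Clec9a), 1 of 11 pDC genes (Ptprs), 1 of 9 cDC2 genes (Tnip3), 1 of 5 macrophage genes (Mrc1), 2 of 11 cytokine and chemokine genes (Ccl3 and Ccl4), 1 of 16 lineage transcription factors (Bcl11a), 1 of 15 interferon-stimulated genes (Gbp2) and 1 of 1 tested B cell gene (Ighm). None of 13 mature dendritic cell genes, 10 MHC class II genes and 11 monocyte genes was called by limma in either direction. At an unadjusted p under 0.05, 3, 0 and 5 of them were lower and 0 higher, edgeR called 0, 0 and 1 lower, and DESeq2 called 1 (Ccr7, adjusted p = 0.0313), 0 and 1 (Fn1, 0.00184) lower. Ccr7 stood at 0, 0.139, 0 and 0 UMIs per 10000 in the GC tumors, below every control tumor (0.562 to 3.70). Its log2 difference was -3.49 (limma adjusted p = 0.0783). It was past the threshold when any 1 of the 5 control tumors was left out (limma adjusted p 5.52e-05 to 0.0244). Without any 1 of the 4 GC tumors it was not (limma adjusted p up to 0.323). Ccr7 was found in 16 of 95 control and 1 of 9 GC cells, and 1 control cell alone held 64 UMIs. Without 1 of GC tumors 1, 2 and 5, limma also lost Mrc1, Bcl11a and Gbp2 (adjusted p 0.0574 to 0.320), and Mrc1 was also lost without GC tumor 3. The edgeR adjusted p of Gbp2 was 0.303. Likewise, without GC tumor 1, 2 or 3 limma lost Ptprs (adjusted p 0.0580 to 0.0920). These lists were chosen with earlier results known, so their counts are a description. In control, Ighm held 49 UMIs in the 5 Siglech-high cells, 15 in the 4 Xcr1-high cells and 41 in the 86 others. Clec9a held 9, 49 and 43 in the same groups. Siglech-high cells were in control only, while 1 Xcr1-high cell was in GC. Without the marker-high cells, limma called none of Ighm (adjusted p = 0.470), Bcl11a (0.222), Ptprs (0.0645) and Gbp2 (0.0725), with log2 differences of -1.83, -2.20, -2.96 and -3.12. Leaving out any 1 of the 4 GC tumors also ended the call of Ighm (limma adjusted p 0.111 to 0.251). The pDC list summed to 7.09 to 41.6 UMIs per 10000 in the control tumors and 5.15 to 17.5 in the GC tumors, with 12 of its 19 genes at 0 in the GC cells. The proliferation list summed to 0 to 6.996 in the GC tumors, where a value rests on 1 to 3 cells, against 0.407 to 1.44 in control. The Xcr1-high cell of GC tumor 5 held 15 Mki67 UMIs. T cell genes summed to at most 0.148 in GC tumors, with 7 of 8 at 0. The part of the mix of cells in these differences was tested only by leaving the marker-high cells out.

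No difference in MHC class II or the interleukin 1 genes passed the test, and the GC tumors spread widely. H2-Ab1 stood at 11.6, 73.8, 98.2 and 16.8 UMIs per 10000 in the GC tumors, below and above the control range of 41.9 to 64.4 (log2 difference -0.10 ± 0.422, relative 0.41, limma adjusted p = 0.954, with the sign turned to 0.019 by DESeq2). Il1r2 stood at 32.005, 42.3, 64.5 and 7.54 against 22.3 to 37.1 (0.09 ± 0.456, relative 0.59, limma adjusted p = 0.967, with the sign turned to -0.062 by edgeR). Il1r2 is also on the list of GC targets. Il1b stood at 26.2, 72.6, 66.4 and 2.58 against 30.0 to 58.4. GC tumor 5, which held the Xcr1-high cell, was the lowest of the 4 for Il1r2 and Il1b.

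Genes known to be induced by GC through its receptor did not pass the test in these cells. Of 13 tested members of that list, 0 were called higher and 1, Sgk1, lower, by limma and by edgeR alike. At an unadjusted p under 0.05, limma had 1 higher (Ddit4) and 1 lower. Fkbp5 stood at 8.73, 0.151, 2.98 and 2.82 UMIs per 10000 in GC tumors 1, 2, 3 and 5 against 0 to 0.671 in control, Klf9 at 0, 0.706, 1.12 and 2.84 against 0.0392 to 0.742, and Ddit4 at 2.91, 4.90, 6.26 and 4.85 against 0.809 to 2.69. Every GC tumor was above every control tumor for Ddit4, and 3 of 4 were for Fkbp5. GC tumor 1 rests on 1 cell of 3437 UMIs, in which the Ddit4 value of 2.91 equals 1 UMI. Its Fkbp5 value of 8.73 comes from the same cell. Their log2 differences were 1.69 ± 1.34 (relative 2.19, limma adjusted p = 0.696), 1.73 ± 0.856 (relative 2.24, 0.455) and 1.69 ± 0.641 (relative 2.20, 0.261), none past the threshold under any of the 17 alternatives. Pooled, Fkbp5 was 1.81 (exact 95% interval 1.23 to 2.55) in GC against 0.397 (0.304 to 0.511), and Ddit4 4.68 (3.73 to 5.80) against 1.60 (1.41 to 1.82), intervals that leave out the spread between tumors.

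Sgk1, a kinase gene of the same list, stood at 5.82, 0, 0 and 0.192 UMIs per 10000 in the GC tumors against 1.05 to 2.67. GC tumor 1 rests on 1 cell of 3437 UMIs, in which 5.82 equals 2 UMIs. The log2 difference was -3.46 ± 0.716 (relative -2.96), with a limma adjusted p of 0.00648. It was 0.137 without weights on cell number, 0.127 without GC tumor 2 and 0.145 without GC tumor 3. The 16 listed genes together summed to 45.8 to 60.8 UMIs per 10000 in the control tumors and 64.0 to 99.1 in the GC tumors. This sum was not tested, and it includes Il1r2 and the receptor gene Nr3c1 (log2 difference -1.04). Fitted differences of the 13 tested members went both ways, from -3.46 (Sgk1) and -1.53 (Mt2) to 1.73 (Klf9). Their median was 0.09, against -0.50 over all genes.

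**Figure D5:**
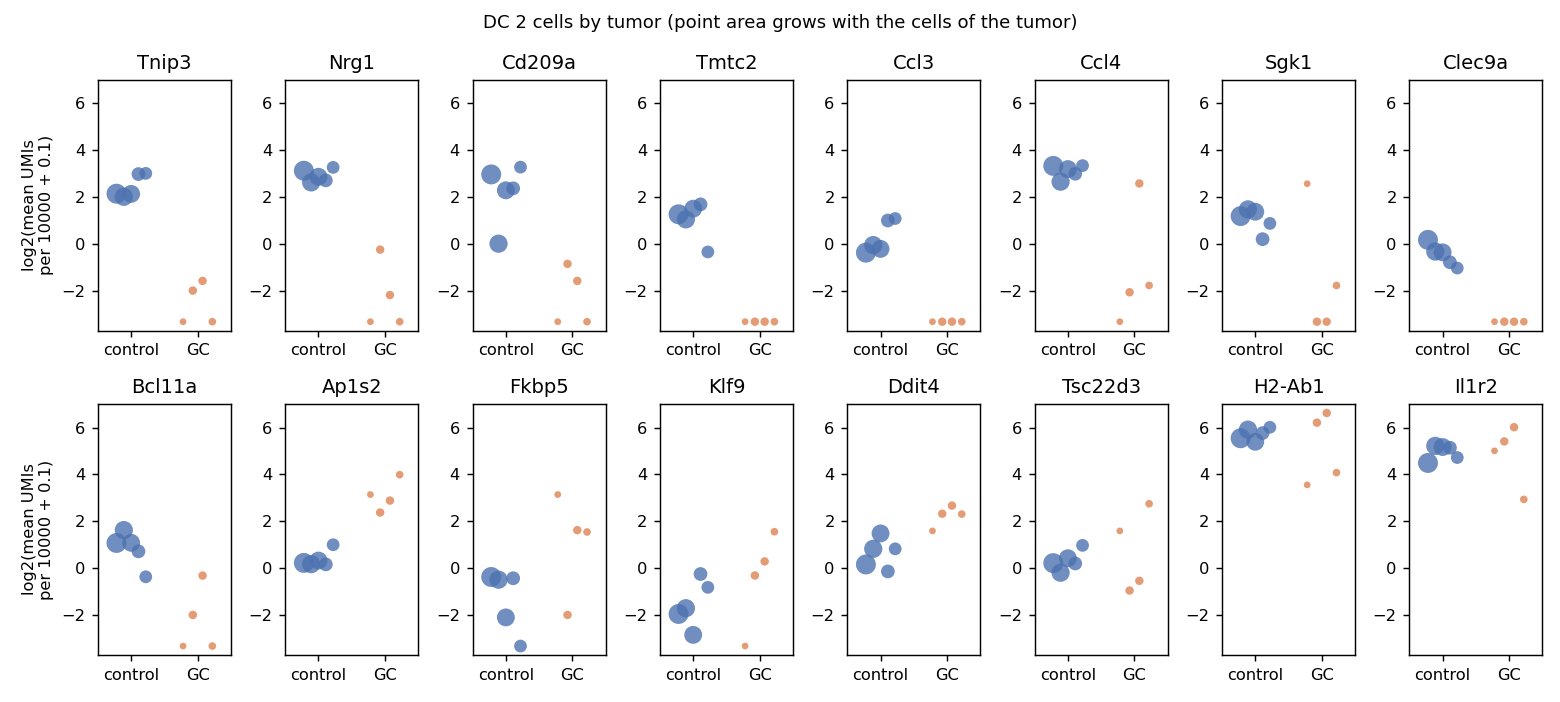
Levels of 16 genes in DC 2 of 5 control and 4 GC tumors, as log2(mean UMIs per 10000 + 0.1), with 1 point per tumor whose area grows with its number of DC 2 cells (10 to 28 in control, 1 to 3 in GC). Nrg1 and Tnip3 are lower and Ap1s2 higher in every GC tumor, while H2-Ab1 and Il1r2 overlap.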

How the data were processed

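Single-cell RNA-seq was made from live CD45+ cells of 10 tumors, 5 per group, in 2 channels of the 10x 3' assay. The authors aligned reads with Cell Ranger 7.1.0 to mm10 (GRCm38), introns included, kept cells with 1 hashtag, filtered cells at 3 median absolute deviations, and integrated and clustered them in Seurat 5.0.3 (R 4.3.1) and Partek. Doublets within a tumor were not removed, and no further doublet caller was run here. The deposited expression values are the natural log of 1 plus UMIs per 10000, as the authors normalized them. The deposited cell table gives each cell's total count of UMIs, its cluster, its hashtag and its percent of mitochondrial reads. Whole UMIs were recovered from the natural log values for all genes and cells (tolerance 0.01) and summed to the listed totals in all 4108 cells.

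Members are the cells named DC 2. They and the 22 gene lists were chosen with earlier results of these data known. Per tumor, UMIs per 10000 were averaged over cells, with 0.1 added before log2 and genes with a mean under 0.2 left out. Clusters were compared within control tumors with at least 5 cells of each, without a test. Groups were compared with limma 3.58.1, weighted by cells (R 4.3.3), and edgeR 4.0.16 quasi-likelihood and DESeq2 1.42.0 on UMI sums, with Benjamini-Hochberg adjustment, and shares with exact permutation tests (scipy 1.17.1). Limits for 0 rest on 3 counts and intervals are exact at 95%. Genes named are those of the lists, the 12 highest and 12 lowest by median difference against each cluster, and the 10 highest and 10 lowest past the threshold between groups (1 was higher). Tested on simulated data for this comparison (5919 genes), limma recovered 15 of 100 genes changed by 2 on the log2 scale and 78 of 100 changed by 4, and edgeR 43 and 84. False calls were 1 of 94 by limma and 9 of 136 by edgeR. The simulation drew tumor sums with 1 common dispersion, without a mix of cells or a shift over all genes. Recovery in the real data may therefore be lower. A planned comparison of cells with Siglech against cells with Xcr1 or Clec9a could not be fitted, since 0 control tumors held 3 cells of both. Some genes that these rules would name are not reported here.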

Additional observations from a re-analysis of the deposited data

Results flagged for a closer look

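In 16 of 92 groups of tumors tested, over 45 genes, 1 tumor lay far from the others of its group by Dixon's test. The nominal rate of 1 in 20 assumes normally distributed values and does not hold for such sparse counts. A gene found in only 1 of the 4 GC tumors is always flagged, as Xcr1, Siglech, Ccr7, Hdac9, Tnfrsf9 and Lemd3 were. For Ccr7 and Lemd3, the GC cells held 1 UMI each. Of the 16 flagged groups, 13 are in the GC tumors, where a value rests on 1 to 3 cells. GC tumor 5, whose 2 cells include the Xcr1-high cell, was high in Xcr1 (1.15 UMIs per 10000), Flt3 (4.25), Siglech (0.768) and Lyz2 (2.69) and low in Cd83 (2.30). GC tumor 1, with 1 cell, was high in Apba1 (2.91) and Sgk1 (5.82). GC tumor 2 was high in Nrg1 (0.742), Tnfrsf9 (0.445), Ccr7 (0.139) and Lemd3 (0.148), and GC tumor 3 in Ccl4 (5.86) and Hdac9 (0.360). In the control tumors, Hdac9 was high in tumor 1 (4.03), Apba1 in tumor 2 (3.90) and Ap1s2 in tumor 5 (1.90), the last still below the lowest GC value of 5.09.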

How the results depend on the processing

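The GC comparison was the result that moved most. Against 32 genes called, there were 3 with a pseudocount of 1, 20 with no filter, 132 without weights, 58 by edgeR, 67 by DESeq2, 13 with tumors of at least 2 DC 2 cells, and, chosen after seeing the data, 13 without the marker-high cells and 59 by edgeR without them. Leaving out 1 tumor gave 12 to 75. The share of calls that were higher was 3.1% by limma, 15.5% by edgeR and 43.3% by DESeq2. With a pseudocount of 1, 115 genes were higher and 107 lower than in DC 1, and 56 and 72 than in Monocytes 1. With means of log values these were 91 and 94, and 37 and 55. Leaving out 1 tumor gave 468 to 523 and 294 to 332 against DC 1, and 199 to 208 and 281 to 326 against Monocytes 1, since fewer tumors had to pass. At 2 UMIs or more, 82 cells had no marker and 15 had Xcr1 or Clec9a only. The difference in DC 2 share lay between -0.292 and 1.10 percentage points of CD45+ cells and between -17.5 and 1.22 of dendritic cells with 1 tumor left out, and was 1.22 with at least 3 dendritic cells per tumor (exact permutation p 0.159 to 0.937 over all alternatives).

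Single genes turned their sign as follows (log2). Tsc22d3, 0.05, became -0.12 with tumors of at least 2 cells, -0.09 without control tumor 2, -0.12 and -0.66 without GC tumor 1 and 5, and -0.029 without the marker-high cells (-0.66 to 0.67 with 1 tumor left out). Il1r2, 0.09, became -0.11 without weights, -0.062 by edgeR, -0.10 without control tumor 1, -0.11 and -0.41 without GC tumor 2 and 3, and -0.17 by edgeR without the marker-high cells (-0.41 to 0.68 with 1 tumor left out). H2-Ab1, -0.10, became 0.019 by DESeq2, 0.16 with tumors of at least 2 cells, and 0.16 and 0.33 without GC tumor 1 and 5 (-0.62 to 0.33 with 1 tumor left out). The cause was not tested for any of these. No paired analysis was possible because tumor numbers only name the tumors, and the labels pair no control with a GC tumor. The 9 GC cells leave a median SE of 0.70 (log2).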
